A study of Mus musculus with 10 samples.

Results

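The 10 genes described here build or maintain the contacts of epithelial cells: the adhesion genes Cdh1 and Epcam, the tight junction genes Cldn3, Cldn4, Cldn6, Cldn7 and Ocln, the polarity gene Crb3, the splicing factor gene Esrp1 and the vesicle trafficking gene Rab25. They were chosen by name, as every probe set annotated to a single gene symbol among these 10, which gave 15 of the 22690 probe sets on the array (20380 of which carried a single symbol). The series measured mouse cells on 10 Affymetrix arrays with a single channel, 2 for each of 5 groups. Established induced pluripotent stem cells (iPSC) were grown in 2i, which is a pair of kinase inhibitors, with serum, or together with mouse embryonic fibroblasts (MEFs). The other groups came from secondary MEFs, fibroblasts with inducible Yamanaka factors (Pou5f1, Sox2, Klf4, Myc), after 32 days of factor expression. They were a day 32 sample with no named fraction and the fractions of such cells sorted as positive or negative for Sox2. The title names RNA FACS, in which cells are sorted by the RNA they hold, so Sox2 itself was the sorting gene and is no finding. All day 32 groups shared the factor expression, it is not stated whether the MEFs were taken out before RNA of the co-cultured iPSC was made, and no factor-free fibroblast array was used here.

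Cadherin 1 (E-cadherin) holds epithelial and pluripotent cells together at adherens junctions, and claudins and occludin seal the space between cells at tight junctions. Fibroblasts lack most of these proteins, and the return of Cdh1 and its partners, the mesenchymal-to-epithelial transition, is an early step of reprogramming. Crb3 marks the apical side of a polarised cell, Rab25 recycles proteins to that side, and Esrp1 sets the epithelial splice forms of many transcripts.

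Values are the deposited log2 expression values, on which a step of 1 is a doubling, and a level is not comparable between probe sets. A gene was taken as on in a group when both arrays exceeded log2 4. The test throughout was limma over all 10 arrays and 14012 kept probe sets (over 4 on at least 2 arrays), and a difference was called when its Benjamini-Hochberg adjusted p was under 0.05. Of the 15 probe sets 13 were kept, with at least 1 for every gene. Those left out were Cldn3 1426332_a_at, which ranged from 2.03 to 3.18 over the 10 arrays, and Crb3 1455115_a_at, which ranged from 3.36 to 3.95. With 2 arrays against 2, an exact permutation p cannot go below 0.33. Whether the 2 replicates of a group were cultured separately is not stated, and the p-values then cover the spread between these arrays, which may be technical. In bulk RNA, fewer cells of a type and less RNA per cell cannot be told apart.

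The arrays fell into 2 classes. The 18S ribosomal RNA control read 11.35 to 13.22 on the iPSC with MEFs and on both sorted fractions, and 5.25 to 6.55 on the iPSC in 2i and on the day 32 sample. The median over all probe sets was 4.265 to 4.33 in the first class and 5.275 to 5.36 in the second. The fractions against each other and against iPSC with MEFs, and day 32 against iPSC in 2i, lie within a class by 18S and median. Within the first class, iPSC with MEFs still differed from the sorted arrays, with an upper quartile of 7.37 and 7.38 against 6.87 to 6.91. Elsewhere class and group cannot be told apart. Sox2 read 9.46 and 10.45 in the Sox2-positive fraction, 4.45 and 4.13 in the Sox2-negative fraction, and 11.24 to 12.50 on the other 6 arrays.

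Proximal promoters are shown for 4 of the 5 genes that were higher in the Sox2-positive fraction and for Crb3, which was on in both fractions. They are the 250 bases before a RefSeq transcript start on mouse build GRCm38.p6, written along the gene, with every E-box of the form CAGGTG or CACCTG in capitals. That E-box, searched on both strands, is the letters read by the Snail and Zeb repressors known from the Cdh1 promoter. The table used held windows for 8 of the 10 genes, and not for Cdh1 or Esrp1. Cldn7 and Crb3 each had another window, not shown. That of Cldn7 starts 642 bases further upstream, directly before the annotated start of the gene.
Epcam, chr17:87635729-87635978, plus strand: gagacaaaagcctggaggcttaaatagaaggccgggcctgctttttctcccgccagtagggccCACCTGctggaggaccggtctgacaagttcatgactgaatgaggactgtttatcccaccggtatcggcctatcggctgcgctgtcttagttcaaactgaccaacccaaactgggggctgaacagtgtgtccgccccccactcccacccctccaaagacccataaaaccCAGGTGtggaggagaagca
Cldn4, chr5:134946935-134947184, minus strand: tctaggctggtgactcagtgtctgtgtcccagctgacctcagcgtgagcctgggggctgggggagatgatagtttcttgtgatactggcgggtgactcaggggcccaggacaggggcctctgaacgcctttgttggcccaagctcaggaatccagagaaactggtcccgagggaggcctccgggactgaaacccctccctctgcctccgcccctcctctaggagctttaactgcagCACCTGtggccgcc
Cldn6, chr17:23679115-23679364, plus strand: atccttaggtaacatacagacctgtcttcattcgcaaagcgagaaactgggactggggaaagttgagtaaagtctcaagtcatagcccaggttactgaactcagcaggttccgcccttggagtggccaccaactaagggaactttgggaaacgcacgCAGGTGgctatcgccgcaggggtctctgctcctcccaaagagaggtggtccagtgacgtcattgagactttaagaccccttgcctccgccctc
Cldn7, chr11:69965171-69965420, plus strand: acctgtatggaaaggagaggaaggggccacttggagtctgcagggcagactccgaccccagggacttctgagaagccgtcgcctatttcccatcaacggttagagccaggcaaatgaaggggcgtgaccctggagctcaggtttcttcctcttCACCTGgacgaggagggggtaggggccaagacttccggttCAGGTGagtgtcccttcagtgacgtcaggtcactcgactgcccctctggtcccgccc
Crb3, chr17:57061951-57062200, plus strand: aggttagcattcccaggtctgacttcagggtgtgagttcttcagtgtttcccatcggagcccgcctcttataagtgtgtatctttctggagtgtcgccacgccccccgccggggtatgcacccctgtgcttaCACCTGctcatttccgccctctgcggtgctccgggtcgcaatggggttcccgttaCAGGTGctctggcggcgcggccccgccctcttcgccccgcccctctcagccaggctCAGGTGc
Epcam held the E-box at 187 and 19 bases before its start, Cldn4 at 14, Cldn6 at 93, Cldn7 at 97 and 57, and Crb3 at 118, 63 and 7. Genes not called between the fractions held it as well, Rab25 at 64 and 53 and Ocln, in a single window, at 213 and 68. Of the 11 windows of the 8 genes 8 held it, where the Crb3 windows start 30 bases apart and hold the same 3 E-boxes, and the other windows of Cldn7 and of Ocln and the single window of Cldn3 did not. Over all 32851 mouse windows of this length 17.2% held it and 2.06% held it more than once. A match describes letters, not binding.

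Within day 32, Cdh1, Epcam, Cldn4, Cldn6 and Cldn7 were higher in the Sox2-positive fraction, and no gene of the 10 was called lower there. Of the 13 kept probe sets 5 were called higher and 0 lower by limma, against 6.19% of all kept probe sets called higher and 5.07% called lower. The median difference of the 13, Sox2-positive minus Sox2-negative, was 1.14, against -0.02 over all kept probe sets. The direction was positive for 12 of the 13, and the exception was Ocln. Since Cldn3 and Crb3 each entered by several probe sets, the 13 are not 13 separate genes.

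By the limit of 4, Cdh1, Epcam and Crb3 were on in both fractions, and Cldn3, Cldn4 and Cldn6 were on in the Sox2-positive but not in the Sox2-negative fraction. Cldn7, Ocln, Esrp1 and Rab25 were on in neither, and no gene was on in the Sox2-negative fraction alone. Among all probe sets with a single symbol, 46.4% were on in both fractions, 4.65% in the Sox2-positive fraction alone, 4.46% in the Sox2-negative fraction alone and 44.5% in neither. With the limit at 5 or at 6, the genes on in both were Cdh1 and Epcam, and those on in the Sox2-positive fraction alone were Cldn4, Cldn6 and Crb3. Of all single-symbol probe sets 35.6% were then on in both and 4.24% in the Sox2-positive fraction alone at 5, and 26.3% and 3.8% at 6. By any probe set, the genes on at the limit of 4 numbered 6 in Sox2-positive and 3 in Sox2-negative cells, where 51.1% and 50.9% of all single-symbol probe sets were on, and 6 in iPSC with MEFs (52.1%). They numbered 9 in day 32 (60.8%) and 9 in iPSC in 2i (60.6%), the latter with Cldn3 on only by 1434651_a_at and not by its leading probe set. As probe sets, the unit of those shares, 6, 3, 6, 12 and 10 of the 15 were on in the same order. At 5 or at 6 the gene counts were 5, 2, 5, 5 and 4 in the same order. The shares of all single-symbol probe sets were 39.9%, 39.9%, 42.5%, 51.8% and 51.7% at 5. At 6 they were 30.1%, 30%, 34%, 43.4% and 43.6%. The order of the iPSC cultures thus turned, but only by 5 genes against 4.

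**Figure D1:**
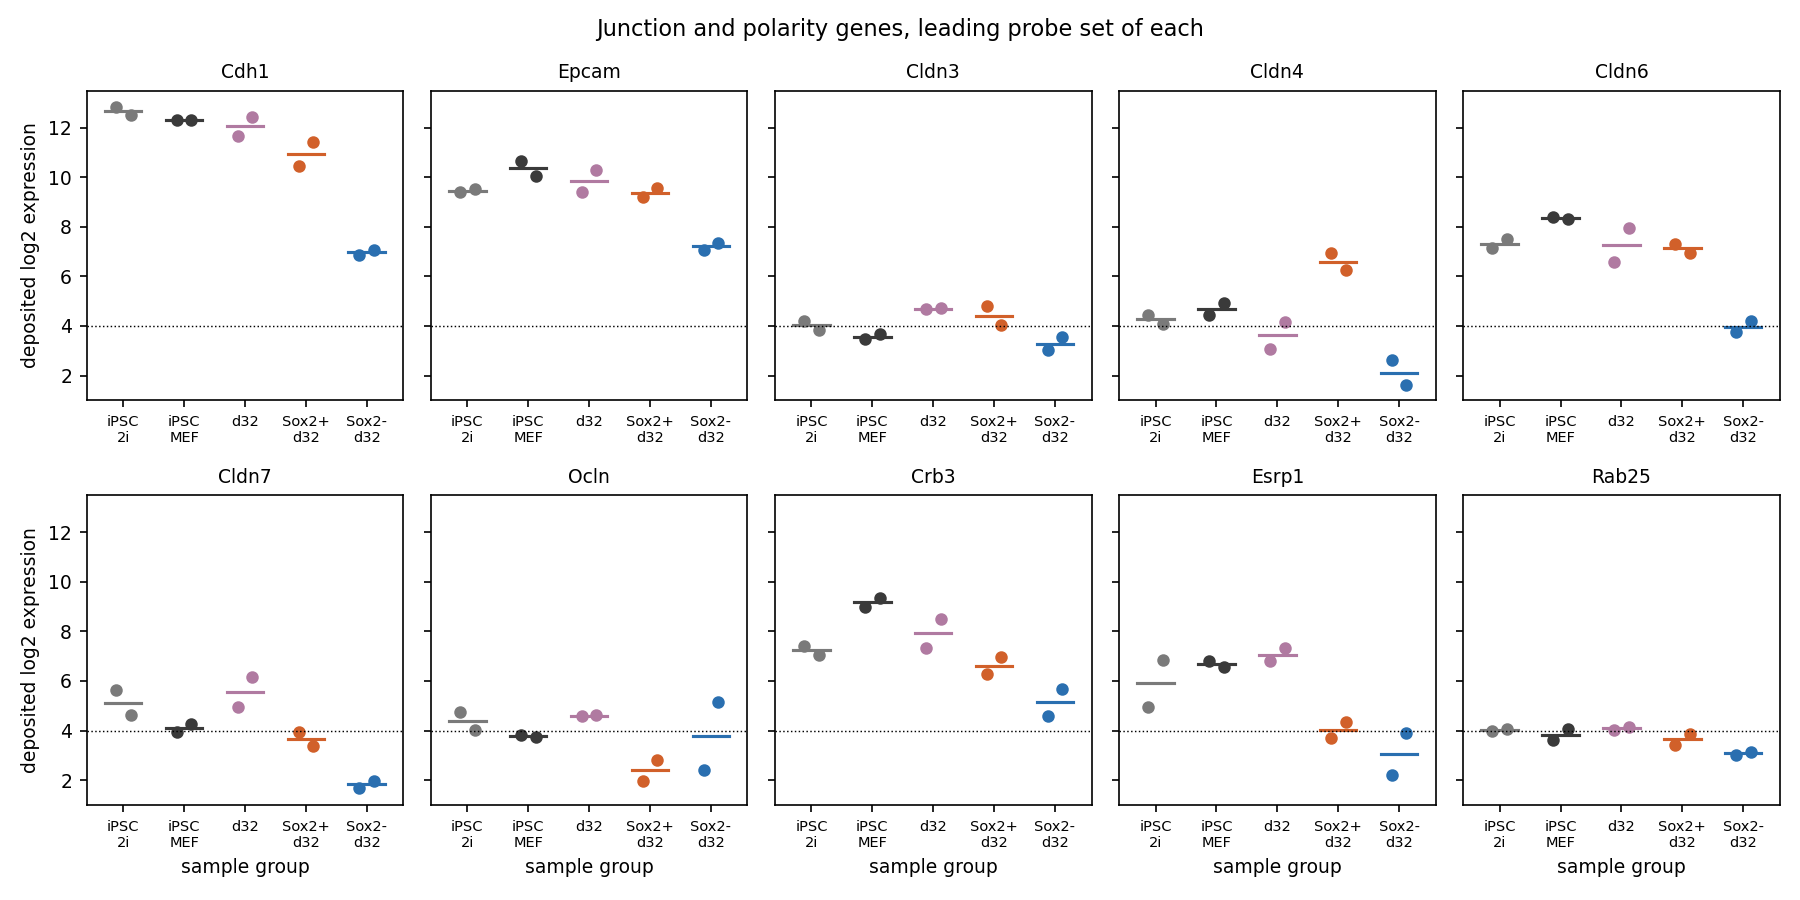
Deposited log2 expression of the 10 genes by their leading probe set, with sample groups on the horizontal axis. Points are arrays, short lines are means of the 2 arrays of a group, and the dotted line is log2 4; Cldn4 is the gene whose Sox2-positive arrays (6.94 and 6.26) lie above all other arrays, while Cdh1 stays above the line on all 10.

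Cdh1, whose product is the cadherin of the adherens junction, read 10.44 and 11.42 in the Sox2-positive fraction and 6.88 and 7.07 in the Sox2-negative fraction. It read 12.85 and 12.52 in iPSC in 2i, 12.30 and 12.33 in iPSC with MEFs, and 11.67 and 12.43 in day 32. The Sox2-negative arrays were the lowest of the 10, the Sox2-positive arrays came next, and neither overlapped another group. The fractions differed by 3.96 (SE 0.37, 95% interval 3.11 to 4.80), a 15.5-fold difference, with a limma adjusted p of 0.000637.

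Epcam, a cell surface adhesion molecule of epithelia and pluripotent cells, read 9.22 and 9.55 in the Sox2-positive and 7.08 and 7.36 in the Sox2-negative fraction. It read 9.39 and 9.53 in iPSC in 2i, 10.65 and 10.07 in iPSC with MEFs, and 9.39 and 10.31 in day 32. The Sox2-negative arrays were below all others, and the Sox2-positive arrays overlapped those of iPSC in 2i and of day 32. The fractions differed by 2.17 (SE 0.35, interval 1.37 to 2.96), or 4.48-fold, at an adjusted p of 0.00681.

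Cldn4, a claudin of the tight junction strand, read 6.94 and 6.26 in the Sox2-positive and 2.63 and 1.61 in the Sox2-negative fraction. It read 4.46 and 4.08 in iPSC in 2i, 4.43 and 4.94 in iPSC with MEFs, and 3.09 and 4.18 in day 32. Both Sox2-positive arrays were above all 8 others and both Sox2-negative arrays below them. The fractions differed by 4.48 (SE 0.46, interval 3.43 to 5.53) at an adjusted p of 0.000979. Since both Sox2-negative arrays were under 4, the fold is given against that limit, as at least 6.06-fold higher in the Sox2-positive fraction.

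Cldn6, a claudin known from embryonic epithelia and pluripotent cells, read 7.31 and 6.96 in the Sox2-positive and 3.75 and 4.20 in the Sox2-negative fraction. It read 7.16 and 7.49 in iPSC in 2i, 8.38 and 8.31 in iPSC with MEFs, and 6.58 and 7.95 in day 32. The Sox2-negative fraction stood apart from all other arrays, and the Sox2-positive fraction overlapped iPSC in 2i and day 32. The difference between the fractions was 3.16 (SE 0.42, interval 2.22 to 4.10), or 8.94-fold, at an adjusted p of 0.00284.

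Cldn7, a claudin that also binds the Epcam protein, read 3.94 and 3.37 in the Sox2-positive and 1.68 and 1.98 in the Sox2-negative fraction. It read 5.63 and 4.63 in iPSC in 2i, 3.94 and 4.28 in iPSC with MEFs, and 4.96 and 6.16 in day 32. All 4 sorted arrays were under 4, so no fold is given for the fractions, although their values did not overlap. The fractions differed by 1.83 (SE 0.46, interval 0.80 to 2.85) at an adjusted p of 0.0349. That call was lost without any of the 4 sorted arrays (adjusted p 0.0696 to 0.114), without the filter on low values (0.0556), with array weights (0.15) and with the 4 sorted arrays fitted alone (0.0737).

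Cldn3 was measured by 4 probe sets, and the suffix _x_at marks probes that can bind other transcripts. Its leading probe set, 1460569_x_at, read 4.81 and 4.03 in the Sox2-positive and 3.03 and 3.54 in the Sox2-negative fraction. The other groups read 4.21 and 3.85 in iPSC in 2i, 3.46 and 3.69 in iPSC with MEFs, and 4.67 and 4.74 in day 32. The fractions did not overlap, but their difference of 1.14 (interval 0.40 to 1.87) missed the threshold at an adjusted p of 0.0543. It passed with quantile normalization (0.0417) and without Sox2-positive replicate b (0.0435).

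The other kept Cldn3 probe sets gave smaller differences between the fractions. Probe set 1434651_a_at read 3.79 and 3.40 in the Sox2-positive and 2.64 and 3.04 in the Sox2-negative fraction, a difference of 0.76 with an adjusted p of 0.131. Probe set 1451701_x_at read 2.98 and 2.96 against 2.51 and 2.62, a difference of 0.41 with an adjusted p of 0.286. Both put day 32 (4.97 and 5.26, and 4.3 and 4.08) above all other groups, as the leading probe set did by its mean. They placed iPSC in 2i above the Sox2-positive fraction by mean, where the leading probe set had the opposite order, with overlapping arrays. The sorted arrays of these probe sets were all under 4, as were all 10 arrays of 1426332_a_at.

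Ocln, which encodes occludin, had the widest spread between replicates of the Sox2-negative fraction among the 10 leading probe sets. It read 2.39 and 5.15 there and 1.96 and 2.82 in the Sox2-positive fraction, so the fractions overlapped. It read 4.74 and 4.04 in iPSC in 2i, 3.81 and 3.76 in iPSC with MEFs, and 4.58 and 4.63 in day 32. The fractions differed by -1.38 (interval -3.02 to 0.26), not called at an adjusted p of 0.254. Without Sox2-negative replicate a the difference was -2.76 and was called lower in the Sox2-positive fraction, at an adjusted p of 0.00989.

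Crb3, the apical polarity gene, was measured by 3 probe sets. All had their lowest mean in the Sox2-negative fraction, but they ordered the other groups differently. Its leading probe set, 1434851_s_at, read 6.27 and 6.97 in the Sox2-positive and 4.6 and 5.67 in the Sox2-negative fraction. It read 7.42 and 7.05 in iPSC in 2i, 9.0 and 9.34 in iPSC with MEFs, and 7.32 and 8.52 in day 32. The fractions did not overlap, and their difference of 1.49 (interval 0.41 to 2.56) was not called, at an adjusted p of 0.0772. Without Sox2-negative replicate b it was 2.02 and was called, at 0.0485. Probe set 1424809_at read 4.45 and 3.91 against 3.66 and 3.86, a difference of 0.42 at 0.509. Probe set 1455115_a_at, left out by the filter, read 3.95 and 3.72 against 3.41 and 3.41.

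**Figure D2:**
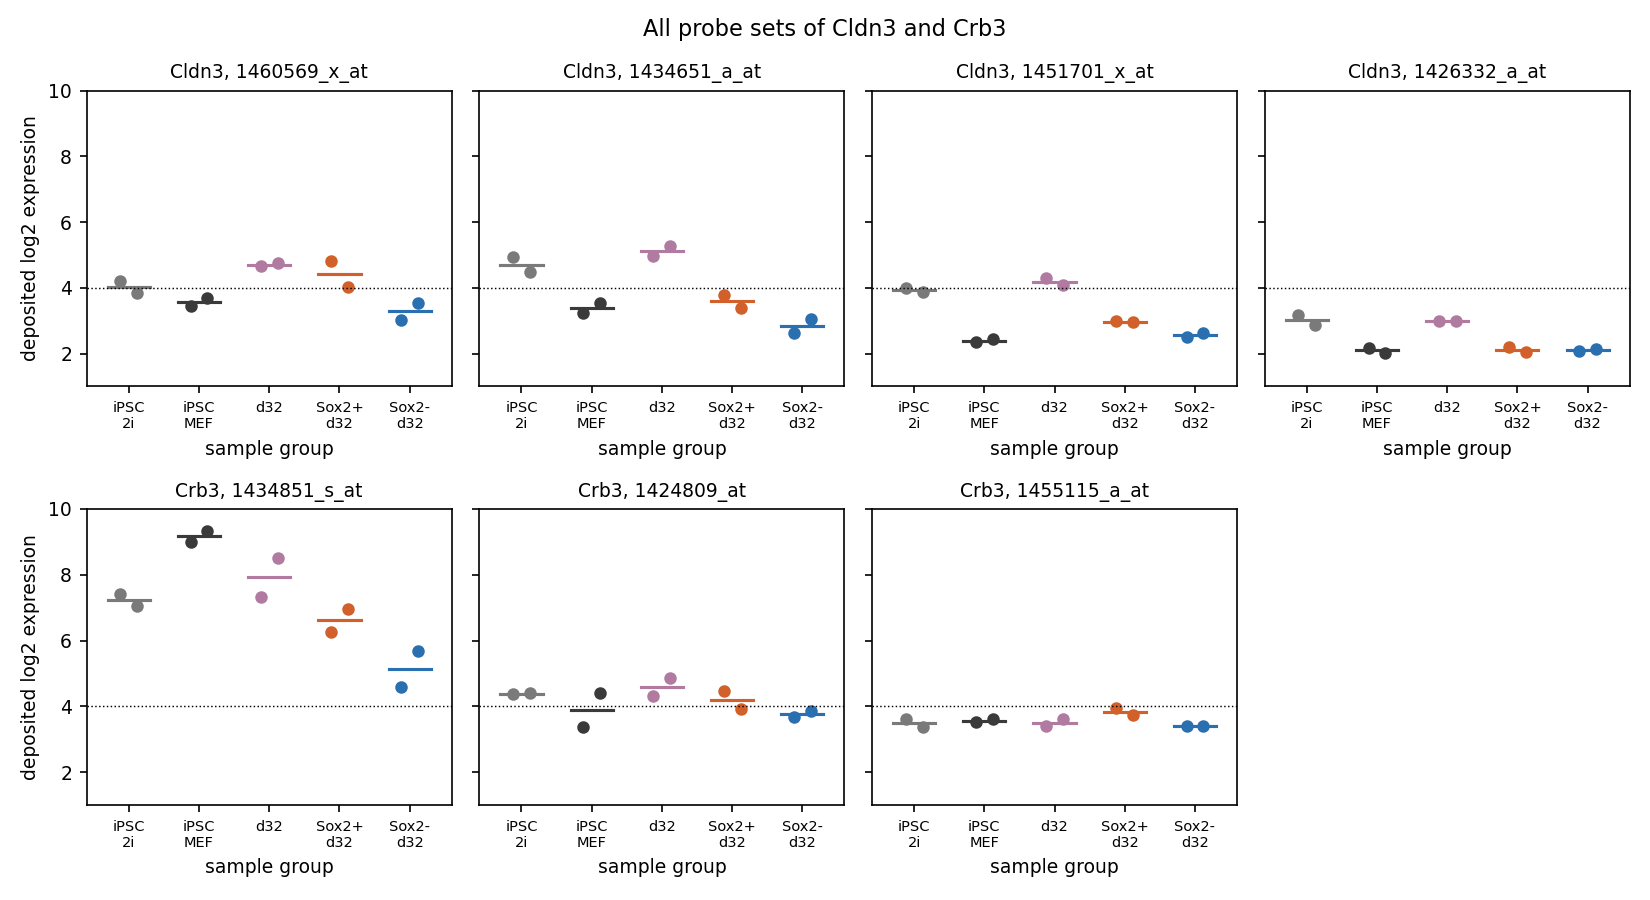
Every probe set of Cldn3 (4) and Crb3 (3), as deposited log2 expression against sample group, with a point for each array, a line for each group mean and a dotted line at log2 4. Only Crb3 1434851_s_at rises well above the limit, with its highest arrays at 9.0 and 9.34 in iPSC with MEFs.

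Esrp1, the epithelial splicing regulator, read 3.72 and 4.34 in the Sox2-positive and 2.20 and 3.89 in the Sox2-negative fraction. It read 4.96 and 6.84 in iPSC in 2i, 6.80 and 6.56 in iPSC with MEFs, and 6.80 and 7.33 in day 32. The fractions overlapped each other and lay below all 6 other arrays. Their difference of 0.99 (interval -0.50 to 2.47) was not called, at an adjusted p of 0.368.

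Rab25, a small GTPase of apical recycling endosomes, stayed near the limit in every group. It read 3.43 and 3.85 in the Sox2-positive and 3.03 and 3.14 in the Sox2-negative fraction, and 3.62 to 4.14 on the other 6 arrays. The fractions did not overlap, and their difference of 0.56 (interval -0.04 to 1.15) was not called, at an adjusted p of 0.208.

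Some cell type markers differed between the fractions as well. Of 6 pluripotency markers (Nanog, Zfp42, Dppa5a, Esrrb, Tdgf1 and Utf1), all were on in Sox2-positive cells and 2 (Nanog and Tdgf1) in Sox2-negative cells, with summed log2 levels of 61.09 and 63.10 against 28.42 and 31.34. Zfp42 and Utf1 were under 4 on both Sox2-negative arrays. Of 7 squamous epithelium markers, 0 were on in Sox2-positive and 1 (Krt6b) in Sox2-negative cells, with sums of 18.27 and 17.52 against 27.55 and 28.07. Krt5, Krt14 and Trp63 were under 4 on all 4 sorted arrays. The part of these markers in the differences was not tested.

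Fibroblast markers were lower by sum in the Sox2-positive fraction, with none called, and simple epithelium markers were higher by sum. Of 8 fibroblast markers, 0 were on in Sox2-positive and 1 (Pdgfrb) in Sox2-negative cells, with sums of 18.78 and 19.64 against 24.33 and 26.19. Col1a2, Postn, Thy1, Lum and Dcn were under 4 on all 4 sorted arrays. Only 4 of the 8 had a kept probe set, and 0 were called in either direction. By mean, Thy1 (2.715 against 2.12) and Lum (1.49 against 1.21) were higher in the Sox2-positive fraction and the other fibroblast markers lower. Of 7 markers of simple epithelium 5 and 4 were on, with sums of 43.77 and 45.92 against 38.96 and 39.56, and 2 were called higher in the Sox2-positive fraction. These were Spint1, a membrane protease inhibitor, which averaged 7.98 against 4.21 (13.6-fold, limma adjusted p 0.00528), and Krt7, a simple keratin, at least 1.15-fold higher (1.73, 0.0184). By value 5 of the 7 were higher there. The others, Krt8 (6.67 against 8.06, limma adjusted p 0.0601) and Krt19 (-1.18, 0.065), were lower there by value and not called. Krt8, Spint1, Spint2 and St14 were on in both fractions. Of 5 trophoblast markers only Tfap2c was on in either, with sums of 20.40 and 20.76 against 21.23 and 21.95. None of 5 endoderm markers was on, with sums of 15.10 and 15.14 against 12.11 and 12.90. The part of these markers was not tested either.

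Compared with iPSC grown with MEFs, the Sox2-positive fraction had more Cldn4 and less Cdh1, Esrp1 and, by its leading probe set only, Crb3. Of the 13 probe sets 1 was called higher and 3 lower, where 7.38% and 25.4% of all kept probe sets were called, and the medians were -0.46 over the 13 and -0.34 over all. The share called lower, 3 of 13, was thus near that of the array as a whole. Cldn4 was higher by 1.92 (interval 0.87 to 2.96), or 3.77-fold, at an adjusted p of 0.014. Its call was lost without Sox2-positive replicate a (0.0805) or iPSC with MEFs replicate a (0.101). Crb3 1434851_s_at was lower by 5.86-fold (difference -2.55, adjusted p 0.00491), or 3.59-fold with quantile normalization (0.034). The other kept Crb3 probe set, 1424809_at, was higher by value and not called (0.295, limma adjusted p 0.576). The arrays of Cldn4 and of Crb3 1434851_s_at did not overlap between these groups.

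Cdh1 was 2.61-fold lower in the Sox2-positive fraction than in iPSC with MEFs (difference -1.39, adjusted p 0.021), and Esrp1 6.28-fold lower (-2.65, 0.0152). Both calls were lost without Sox2-positive replicate a, without iPSC with MEFs replicate a and without its replicate b, at adjusted p of 0.0936 to 0.121 for Cdh1 and 0.0667 to 0.0921 for Esrp1. Cdh1 also lost its call with quantile normalization (difference -0.56, adjusted p 0.276) and with median centring (0.0524). Cldn6 (-1.21, interval -2.15 to -0.27) and Epcam (-0.98, interval -1.77 to -0.18) missed the threshold at 0.0511 and 0.0595, although their arrays did not overlap. Cldn6 passed under 5 alternatives (0.0252 to 0.0492) and Epcam under 2 (0.0425 and 0.049), but with quantile normalization the differences shrank to -0.57 (0.364) and -0.18 (0.761), and median centring gave 0.119 and 0.16. On these arrays the 3' minus 5' gap of the Actb control was 1.08 and 1.12 in iPSC with MEFs and 0.09 and 0.21 in the Sox2-positive fraction, and its part in the differences was not tested. In iPSC with MEFs 2 of 8 fibroblast markers (Col1a1 and Col1a2) were on, with sums of 30.78 and 29.67. On the arrays of the other class, 2 of 8 (Col1a1 and Pdgfrb) were on in iPSC in 2i, with sums of 27.77 and 30.71. In day 32 the count was 3, with sums of 32.38 and 34.85.

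The Sox2-negative fraction had less of 8 of the 10 genes than iPSC with MEFs, by their leading probe sets. Of the 13 probe sets 0 were called higher and 8 lower, against 13.4% and 31.6% of all kept probe sets, with a median of -2.28 against -0.38. Cdh1 was 40.5-fold lower (difference -5.34, adjusted p 0.000109) and Cldn6 20.7-fold lower (-4.37, 0.000212). Crb3 1434851_s_at was 16.4-fold lower (-4.04, 0.000414) and Epcam 8.82-fold lower (-3.14, 0.000328). The other kept Crb3 probe set, 1424809_at, was not called (-0.125, limma adjusted p 0.805). With quantile normalization the folds were 19.1 for Cdh1 and 4.81 for Epcam, both still called. The Actb 3' minus 5' gap was 0.1 and 0.05 on the Sox2-negative arrays against 1.12 and 1.08 in iPSC with MEFs. All 6 pluripotency markers were called lower in the Sox2-negative fraction, with a median difference of -5.86 and summed levels of 28.42 and 31.34 against 64.95 and 65.74. The part of either in the differences was not tested.

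The remaining calls rest on a Sox2-negative group under 4 on both arrays. Esrp1 was at least 6.41-fold lower and Cldn4 at least 1.61-fold lower (adjusted p 0.0025 for each). The Esrp1 difference was -2.79 without Sox2-negative replicate a (0.0144) and -4.48 without replicate b (0.00256). Cldn7 was at least 1.08-fold lower (0.00392). Rab25, near the limit in both groups, was lower by 0.75 (0.0433), and lost its call without any of the 4 arrays of these groups (0.0568 to 0.231), with median centring (0.155), array weights (0.0663) or an intensity trend (0.0616), and with these arrays alone (0.0896). Cldn3 and Ocln were not called. The Ocln difference of -0.02 became 1.37, called at an adjusted p of 0.0352, without Sox2-negative replicate a, and -1.40, called at 0.0324, without replicate b.

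**Figure D3:**
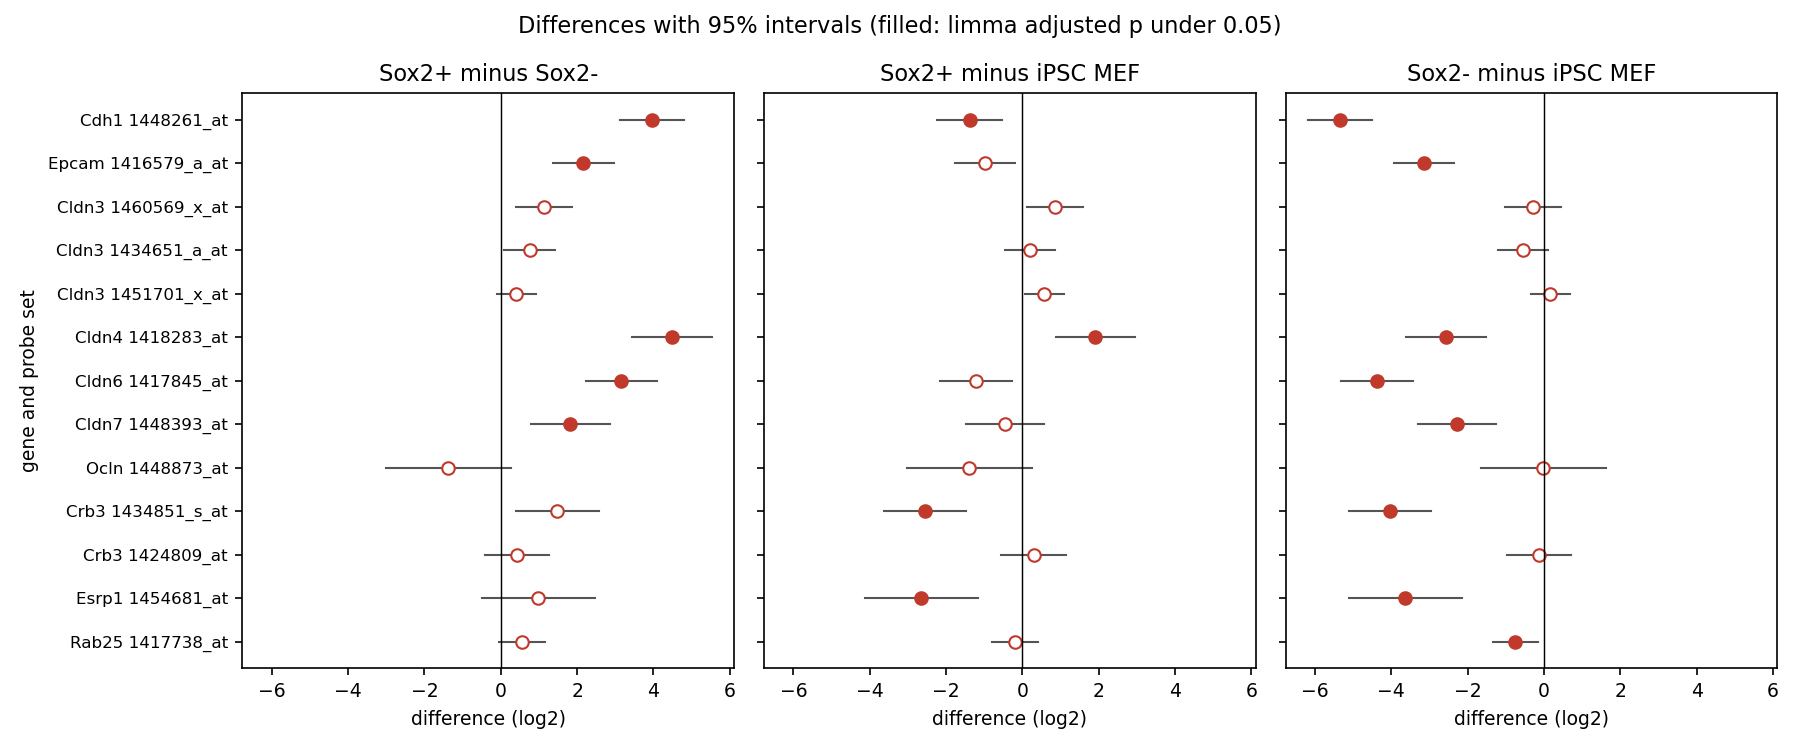
Group differences in log2 units with 95% intervals for the 13 kept probe sets, in 3 comparisons. Filled points had a limma adjusted p under 0.05; in the first panel 5 are filled and all lie to the right, in the second 1 lies to the right (Cldn4) and 3 to the left, and in the third 8 lie to the left.

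Between day 32 and iPSC in 2i, which share an array class, limma called none of the 13 probe sets, where 3.95% of all kept probe sets were called higher and 2.36% lower. At an unadjusted p under 0.05 the count was also 0, and it was 0 under each alternative run. Differences lay between -0.64 and 1.17, and the median was 0.26 against -0.14 over all kept probe sets. The intervals stayed wide: that of Esrp1 ran from -0.32 to 2.65, that of Cdh1 from -1.48 to 0.21 and that of Cldn6 from -1.0 to 0.88. The Actb 3' minus 5' gap was 3.32 and 3.88 in day 32 and 2.94 and 2.7 in iPSC in 2i, wider than in any other group. Its part in this comparison was not tested.

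The iPSC cultures, day 32 and the fractions can be set against each other across the array classes only with class and group inseparable. For iPSC in 2i minus iPSC with MEFs, limma called 2 probe sets higher and 2 lower, against 50.4% and 11.2% of all kept probe sets, whose median was 0.93. Higher were Cldn3 1434651_a_at (1.32) and 1451701_x_at (1.54), and lower were Epcam (-0.90, adjusted p 0.0488) and Crb3 1434851_s_at (-1.94, adjusted p 0.00663). Cldn3 1451701_x_at was under log2 4 on all 4 arrays of these groups. The leading Cldn3 probe set, 1460569_x_at, was not called (limma adjusted p 0.247), nor was Crb3 1424809_at, which was higher by value (0.5, 0.269). The Epcam call was lost without any of the 4 arrays (0.0513 to 0.264). Cldn3 1434651_a_at was not called after quantile normalization (0.44, adjusted p 0.244). After median centring neither 1434651_a_at nor 1451701_x_at was called (0.2 and 0.43, 0.602 and 0.157). After quantile normalization 1 was called higher and 4 lower, and after median centring 0 and 6, and the difference changed sign for 4 and 6 of the 13.

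Day 32 minus the Sox2-positive fraction gave 7 called higher and 1 lower, against 61.2% and 10.3% of all kept probe sets, whose median was 1.27. Cldn4, the gene called lower, was 7.81-fold lower in day 32 (difference -2.97, adjusted p 0.000407), and 16.5-fold and 20-fold lower after quantile normalization and median centring. After quantile normalization 1 was called higher and 2 lower, and after median centring 0 and 4, and the sign turned for 6 and 8 of the 13, not for Cldn4. Day 32 minus the Sox2-negative fraction gave 11 higher and 0 lower, against 61.9% and 10.4%, and 8 and 7 were called higher after quantile normalization and median centring, with 2 and 3 signs turned.

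The levels of day 32 were not confined to the range between the fractions. On both day 32 arrays 7 of the 13 probe sets (53.8%), of Cdh1, Cldn3, Cldn7, Crb3, Esrp1 and Rab25, were above all 4 sorted arrays, as were 64.1% of all kept probe sets, so that the share was near the background. Class and group cannot be told apart here.

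Among the genes whose products work with these, most were not called between the fractions, which does not show that they were alike. They were counted at gene level, each gene by its brightest kept probe set, where 6.86% of 8599 genes were called higher and 5.65% lower in the Sox2-positive fraction and the median was -0.02. Of 9 measured adherens junction genes (10 listed) 1 was called higher and 0 lower, with a median of 0.24. That gene was Cdh3 (P-cadherin), higher by 1.51 with an adjusted p of 0.00773, or at least 1.57-fold. Nectin2, a nectin that joins cells beside the cadherins, gave 1.61 (0.0582), called with quantile normalization (0.0463) and without Sox2-positive replicate a (0.0236), and Jup (plakoglobin) 1.06 (0.102). The catenins that tie Cdh1 to actin, chosen after their values were seen, averaged 11.61 against 11.37 for Ctnna1, 11.76 against 11.84 for Ctnnb1 and 10.35 against 10.86 for Ctnnd1, none called.

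Of 9 measured other tight junction genes (22 listed) 0 were called in either direction, with a median of -0.19. At an unadjusted p under 0.05 the count was 1, Patj, a scaffold of the Crumbs complex (-0.95, adjusted p 0.12). Marveld2 (tricellulin) gave -1.21 with an adjusted p of 0.203, and was called lower without Sox2-negative replicate a (-2.14, 0.0327). Of 15 polarity genes (18 listed) 1 was called higher and 0 lower, with a median of -0.28. It was Pard6b, a Par complex subunit, higher by 1.94 (0.00976), or at least 2.55-fold, with the call lost without Sox2-positive replicate b (0.0568). Llgl2, a basolateral polarity gene, gave 1.39 (0.0965), and Prkci, the kinase of the Par complex, 0.63 (0.114).

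Desmosome genes moved both ways: of 8 measured (9 listed) 1 was called higher and 1 lower, with a median of -0.60. Perp, a desmosomal membrane protein, was 6.52-fold lower in the Sox2-positive fraction (adjusted p 0.013), and Dsg2, a desmosomal cadherin, was higher by 1.69 (0.049). The Perp fold was 3.45 without Sox2-positive replicate b and 12.3 without replicate a, its call was lost without Sox2-negative replicate b (0.0507), and that of Dsg2 without replicate b of either fraction (0.229 for Sox2-positive, 0.185 for Sox2-negative). Dsp (desmoplakin) gave -1.54 (0.0527) and Dsc2 -2.59 (0.0751), both called under some alternatives, among them the omission of Sox2-positive replicate a (0.0338 and 0.0458).

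Of 11 measured genes for apical trafficking, splicing and epithelial transcription factors (15 listed) 3 were called higher and 1 lower, with a median of -0.10. Klf5, a transcription factor of pluripotent and epithelial cells, averaged 9.54 against 4.59, a 30.9-fold difference (4.95, adjusted p 0.000953). Grhl2, a grainyhead factor that activates Cdh1 and claudin genes, was at least 8.03-fold higher (3.58, 0.00646), and Elf3 at least 1.97-fold higher (2.09, 0.0162). Ehf gave -2.17 (0.0168) with both fractions under 4. The calls of Elf3 and Ehf were lost without Sox2-positive replicate b (0.0822 and 0.0842) and without Sox2-negative replicate b (0.0627 and 0.0543), and that of Ehf also without Sox2-negative replicate a (0.0516). Rbfox2 (0.82, 0.127) was called without Sox2-negative replicate a alone (1.27, 0.0373). Ovol2 (0.54, 0.176) was not called, nor was Esrp2, the paralogue of Esrp1, at 7.35 against 7.86 (-0.52, 0.209), which was chosen after its values were seen.

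Of 9 measured mesenchymal cadherins and Cdh1 repressors (11 listed) 0 were called higher and 1 lower in the Sox2-positive fraction, with a median of -0.45. Cdh2 (N-cadherin) averaged 3.32 against 6.08 and was at least 4.23-fold lower (-2.76, adjusted p 0.0373; -1.80 to -3.72 with an array left out), with the call lost without replicate b of the Sox2-positive (0.185) or the Sox2-negative fraction (0.145). Twist2 gave -1.67 (0.0543), called with quantile normalization (0.0391) and an intensity trend (0.0497), and Vim (vimentin) -1.02 (0.0748), called with the trend (0.0337). Zeb1, a repressor of Cdh1 chosen after its values were seen, averaged 6.96 against 7.01.

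**Figure D4:**
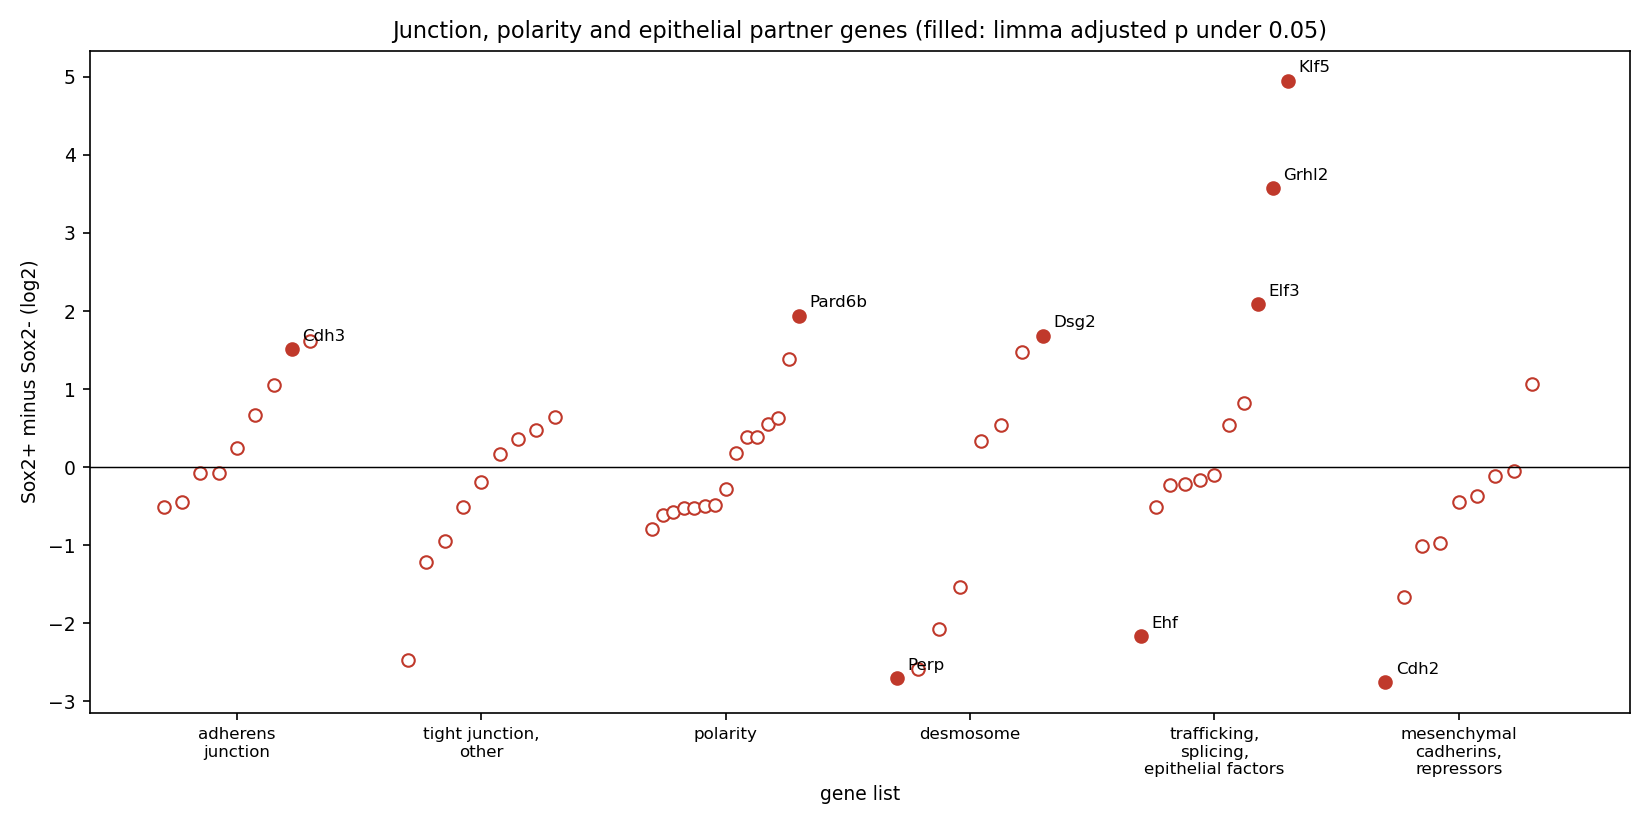
Differences between the fractions, Sox2-positive minus Sox2-negative in log2 units, for each measured gene of 6 lists on the horizontal axis, ordered by value within a list. Filled and named points had a limma adjusted p under 0.05; Klf5 is the highest at 4.95 and Cdh2 the lowest at -2.76.

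Across the 10 arrays the levels of most of the 10 genes ran with that of Cdh1, by their leading probe sets. Pearson r with Cdh1 was 0.93 for Cldn6, 0.929 for Epcam, 0.915 for Rab25, 0.879 for Cldn7, 0.827 for Crb3 and 0.798 for Esrp1. It was lower for Cldn4 (0.527), Cldn3 (0.491) and Ocln (0.227). Among 8449 other named genes, those most like Cdh1 were Pald1 (0.9931), Zfp42 (0.993), Sox2 (0.9927), Tpd52 (0.9919) and Pla2g1b (0.9912). Sox2 was the sorting gene, so its place in this list is no finding. Those most like Cldn6 were Klhl13 (0.9831), Dppa2 (0.9726), Syce2 (0.9678), Klf2 (0.9659) and Nptx2 (0.9628). The arrays share their group, class and normalization, and the Sox2-negative pair lies far from the rest, so these are descriptions of 10 arrays in 5 groups.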

How the data were processed

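The data were 10 Affymetrix arrays of RNA extracted with Trizol and, per the labels, amplified with a NuGEN kit (Ovation V2 or Pico WTA V2), not said for which sample. The authors deposited log2 expression values made with GCRMA and affy, per the submitters' processing notes, in versions not given in the sources used here. These log2 values ran from 0.58 to 14.51, no pair of arrays shared over 1.49% identical values, and precision is limited by how many arrays there were. The 64 control probe sets only described the arrays.

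The test was limma 3.58.1 (R 4.3.3), in a single model of all 10 arrays with a mean per group and no replicate block (residual degrees of freedom 5, prior 4.24), on 14012 probe sets with a single symbol and over log2 4 on at least 2 arrays. Partner genes were tested on 8599 genes, by the kept probe set with the highest mean. Where the lower group was under 4 on both arrays, the fold is the higher mean over 4. Script checks used simulated data. Deviations of same-lettered replicates correlated at -0.0485 to 0.308, so the letters were not taken as pairs.

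The genes and lists were chosen with earlier results of these data known. All probe sets of the 10 genes are given. Of each list at most 4 called genes and 2 others are named, in order of p. The 5 genes most alike are named for Cdh1 and Cldn6. Alternatives changed the normalization, filter, variance model, arrays and block. Figures were drawn with matplotlib 3.10.9.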

Additional observations from a re-analysis of the deposited data

How the results depend on the processing

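Over all 91 differences of member probe sets (13 in each of 7 comparisons), the sign turned for 15 with an array left out. Of these 15, 0 were called in the main fit, where the largest was 0.84 in size. The sign turned for 12 with quantile normalization (1 called in the main fit) and 20 with median centring (4 called there), mostly across the array classes. It turned for 0 under the other alternatives run. Single differences printed that turned included the following. With arrays left out, Crb3 1424809_at moved from -0.22 to 0.81 in Sox2-positive minus iPSC with MEFs. It moved from -0.64 to 0.39 in Sox2-negative minus iPSC with MEFs, and from -0.015 to 1.015 between the iPSC cultures. Sox2-negative minus iPSC with MEFs for Ocln was 0.24 with median centring, and leaving out arrays moved it from -1.40 to 1.37. Leaving out arrays moved Cldn6 from -0.75 to 0.63 in day 32 minus iPSC in 2i, and, between the fractions, Ctnnb1 from -0.24 to 0.09, Zeb1 from -0.37 to 0.27 and Ctnna1 from -0.02 to 0.5. Counts of member probe sets called moved by over 1.5 times as follows. Day 32 minus Sox2-positive gave 3 (quantile), 4 (median centring) and 4 (filter at log2 6), day 32 minus Sox2-negative 7 (median centring) and 6 (filter at 6), and iPSC in 2i minus iPSC with MEFs 2 (filter at 6) and 2 (by leading probe set). The filter at 6 and the choice of leading probe sets test fewer members, and otherwise the cause was not tested. Leaving out arrays gave 1 to 5 for Sox2-positive minus iPSC with MEFs and 5 to 8 for day 32 minus Sox2-positive. With a limit of 5 or 6 in place of 4, the genes on fell to 4 in iPSC in 2i and 5 in day 32. The shares of all single-symbol probe sets fell as well, to 51.7% and 51.8% at 5 and 43.6% and 43.4% at 6.

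Among all kept probe sets, 1578 were called between the fractions, but 451 with array weights, 321 with these arrays alone and 649 without Sox2-positive replicate b. Sox2-positive minus iPSC with MEFs gave 4600, and 2714 after quantile normalization and 1662 to 4117 with an array left out. Sox2-negative minus iPSC with MEFs gave 6307, and 3739 to 5487 with an array left out. Day 32 minus iPSC in 2i gave 884, and 520 (quantile), 1990 (weights), 302 (alone) and 116 to 826 with an array left out. The iPSC cultures gave 8634, and 5661 after quantile normalization. With the replicate block, which pairs arrays by letter only, member calls in the order reported numbered 6, 5, 8, 0, 4, 8 and 11, against 5, 4, 8, 0, 4, 8 and 11, and all calls between the fractions 1747. The block added Crb3 between the fractions (adjusted p 0.0406) and Cldn6 in Sox2-positive minus iPSC with MEFs (0.0449), and between the iPSC cultures it lost Epcam (0.0505) and gained Cldn6 (0.0494). Among partner genes between the fractions it lost Dsg2 (0.0574) and added Nectin2 (0.0484), Dsp (0.0306) and Dsc2 (0.0243). Among partner genes between the fractions, calls were lost with the sorted arrays alone for Cdh3 (0.072), Perp (0.0917), Dsg2 (0.184) and Cdh2 (0.127), with array weights for Dsg2 (0.108), Elf3 (0.0705), Ehf (0.0652) and Cdh2 (0.0982), and without the filter for Dsg2 (0.075), Ehf (0.0672) and Cdh2 (0.0668). Without the filter the Ehf difference was -1.33 in place of -2.17, since a gene can then be led by another probe set. With 2 arrays a group, a difference that was not called may still be large, as the intervals show.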
